A study of Mus musculus with 18 samples.

Results

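Hspb1 encodes a small heat shock protein, called HSP25 in mouse and HSP27 in human, and is described here across 3 murine triple-negative breast cancer cell lines grown with and without folic acid. Its members are the array probes whose ID begins with Mm_ncRNA and carries a transcript accession that the mouse RefSeq gene table lists for Hspb1. The rule found 1 probe of the 80520 non-control probes. That probe is 1 of 193 that could be named, 182 of them by transcript accession and 11 by a synonym. It is 1 of 41082 measured features and 1 of 68 measured genes with a name. Hspb1 was chosen by its measured values in these same arrays, so its levels and differences are a description with their errors, and no test of them is given.

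RNA was measured on 18 two-colour Agilent arrays, 3 in each of 6 groups. E-Wnt and M-Wnt are lines from mammary tumors and metM-Wnt is a line from a liver metastasis, each represented by a single line. Control groups of each line grew for 72 h with 2.2 µM folic acid and regular fetal bovine serum, and withdrawal groups for 72 h without folic acid (0 µM) in dialyzed serum. The labels state this concentration in µM and the design text in mM, and the former unit is kept here. Serum and folic acid were thus changed at the same time, and the effects of these 2 changes cannot be told apart. All arrays carried RNA of the cells in red (Cy5) against RNA of NIH3T3 mouse fibroblasts in green (Cy3), with no swap of the dyes. A value is the log2 ratio of red over green, so 0 means as much signal as in the fibroblasts and -4 a ratio 16-fold lower. In such bulk samples, fewer cells that express a gene and less RNA per cell cannot be told apart.

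Small heat shock proteins are chaperones that work without ATP. They assemble into large oligomers, bind proteins that begin to unfold and hold them until ATP-driven chaperones of the HSP70 class refold them. HSP25 also binds actin filaments, and its oligomers break up when it is phosphorylated by the kinase MK2, which p38 activates. Many carcinomas, breast carcinomas among them, contain much of the protein, and heat shock factor Hsf1 drives its gene under protein stress.

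The sequences below show what the reading of Hspb1 rests on, since the array files place neither probe on the genome and no coordinates are given. The Hspb1 probe is 60 bases long with 53.3% GC, against a median of 41.7% over the 60-base probes of the array. A search of all 80520 probe sequences for any run of 14 bases of it found 1 further probe on the same strand and 0 on the opposite strand. That probe, A_52_P404533, has no gene name in the files used here, and shares the 40 bases printed in capitals. 
Hspb1 probe: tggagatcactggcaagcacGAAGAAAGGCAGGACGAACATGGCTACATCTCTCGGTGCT
A_52_P404533: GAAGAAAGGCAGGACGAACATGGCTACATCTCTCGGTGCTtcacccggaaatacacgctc
Both are written 5′ to 3′ as the scanner files give them. They join into a stretch of 80 bases, and 0 further probes share a 14-base run with it. The printed strand is free of stop codons in 3 of 3 reading frames and the opposite strand in 1 of 3. As background, the stretch belongs to the coding strand of Hspb1, in the part that encodes the conserved alpha-crystallin domain, so although the probe's ID places it in a non-coding set, its bases are those of the messenger RNA. A_52_P404533 was found after the data were seen, by its bases and not by its values. It reads the same RNA extracts as the Hspb1 probe and is not an independent sample.

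The Hspb1 probe was measured well on every array. Its red spots both passed Agilent's test against background on 18 of 18 arrays, and none was saturated. Its 2 spots on an array differed by a median of 0.11 and at most 0.24 log2 units, against a pooled SD of 0.23 between arrays of a group. The mean red signal of an array over all probes ran from 1964 to 6649, the mean green signal from 3371 to 4618, and 40.9% to 53.7% of probes were well above background in red. With 3 arrays per group, which the series describes as biological replicates, their number sets the precision. None of the 30 epithelial, mesenchymal, fibroblast, liver and leukocyte markers considered had a named probe (0 of 30), so the labelled identity of the lines could not be checked here.

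Hspb1 was below the fibroblast reference on all 18 arrays, and its level fell into a low range in E-Wnt and a higher range in the other lines. In E-Wnt control medium the log2 ratios were -4.19, -4.04 and -3.97 on the 3 arrays, a mean of -4.07 ± 0.11 (SD, n = 3). Without folic acid they were -3.93, -4.50 and -4.30 in E-Wnt, a mean of -4.24 ± 0.29 (SD, n = 3). The E-Wnt groups overlapped, and every E-Wnt array lay below every array of the other 2 lines. How many of all features were separated like this over both media was not computed. 
In M-Wnt control medium the ratios were -2.81, -3.06 and -3.13, a mean of -3.00 ± 0.17 (SD, n = 3). In M-Wnt without folic acid they were -1.65, -1.63 and -1.86, a mean of -1.71 ± 0.12 (SD, n = 3). The 3 withdrawal arrays of M-Wnt all lay above the 3 control arrays. 
In metM-Wnt control medium the ratios were -2.51, -2.17 and -1.76, a mean of -2.15 ± 0.38 (SD, n = 3), the widest spread of the 6 groups. In metM-Wnt without folic acid they were -2.12, -2.11 and -1.81, a mean of -2.01 ± 0.18 (SD, n = 3), inside the range of the control arrays.

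**Figure D1:**
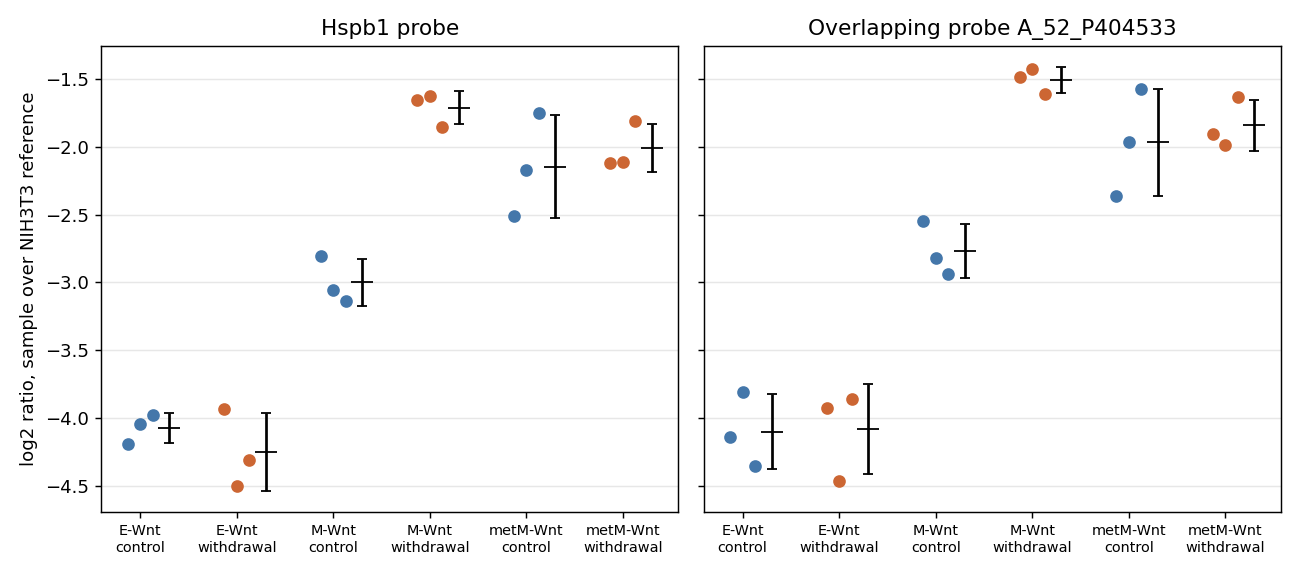
Log2 ratio of the sample over the NIH3T3 reference for the Hspb1 probe (left) and the overlapping probe A_52_P404533 (right). Each point is an array (blue, control medium; orange, folic acid withdrawal), and the bar beside it is the group mean ± SD, n = 3. Both panels show E-Wnt lowest, near -4, and M-Wnt higher without folic acid than in control medium. Without folic acid the M-Wnt and metM-Wnt points overlap on the left. On the right the lowest M-Wnt point (-1.61) lies just above the highest metM-Wnt point (-1.63).

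Ordered by their means, the groups ran from E-Wnt without folic acid and E-Wnt control, 19.0-fold and 16.8-fold below the reference, to M-Wnt control at 8-fold below. The metM-Wnt control group was 4.43-fold below the reference, metM-Wnt without folic acid 4.04-fold and M-Wnt without folic acid 3.28-fold. Neighbours in this order overlapped, except that all M-Wnt control arrays lay above all E-Wnt arrays and below all metM-Wnt arrays. Of all features, 29.1% had all M-Wnt control arrays above all E-Wnt control arrays. In 18.6%, all metM-Wnt control arrays lay above all M-Wnt control arrays. Both shares cover control arrays only, and the share for a separation over both media was not computed. With arrays centred on their median in place of loess, M-Wnt control (up to -1.97) and metM-Wnt control (from -2.05) overlapped. Without a dye swap, the distance from the reference contains any dye effect, of which only a part common to all arrays cancels between groups.

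The overlapping probe gave the same order of levels apart from the 2 E-Wnt groups. Its ratios were -4.13, -3.80 and -4.35 in E-Wnt control and -3.92, -4.46 and -3.86 in E-Wnt without folic acid. In M-Wnt they were -2.55, -2.82 and -2.94 in control medium and -1.49, -1.43 and -1.61 without folic acid. Again the M-Wnt withdrawal arrays all lay above the control arrays. In metM-Wnt they were -2.36, -1.97 and -1.58 in control medium and -1.91, -1.99 and -1.63 without folic acid, and these groups overlapped. Over the 18 arrays the Pearson r between both probes was 0.99, with a median gap of 0.19 and a largest gap of 0.45 on an array. These points share arrays, extracts and 40 bases, and the r is a description.

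Folic acid withdrawal was followed by a higher Hspb1 level in M-Wnt. In the other lines the differences after loess were within the error. In M-Wnt the difference was 1.29 ± 0.18 log2 units (SE of the model, n = 3 per group), a 2.44-fold higher level, and 1.26 ± 0.20 on the overlapping probe. A rise at least that large was found for 0.859% of all features. At the same comparison 18.4% of all features were called changed (limma adjusted p under 0.05), and in 30.8% all 3 withdrawal arrays lay above all 3 controls. In metM-Wnt the Hspb1 difference was 0.13 ± 0.18 (SE, n = 3 per group), and 0.12 on the overlapping probe. In E-Wnt it was -0.18 ± 0.18 (SE, n = 3 per group), and 0.02 on the overlapping probe. Both are no larger than their errors after loess. The red channel alone gave larger differences, 0.34 ± 0.15 in metM-Wnt and -0.30 ± 0.15 in E-Wnt (SE).

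Set against each other, the response of Hspb1 in M-Wnt exceeded that in E-Wnt by 1.46 ± 0.25 and that in metM-Wnt by 1.15 ± 0.25 log2 units (SE, n = 3 per group). The overlapping probe gave 1.24 ± 0.29 and 1.13 ± 0.29. Of all features, 1.09% and 1.36% had a difference in response at least as large in the same direction. Since the gene was chosen with this contrast in view, these differences carry no p.

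The lines also differed in Hspb1 before withdrawal. In control medium Hspb1 was 2.10-fold higher in M-Wnt than in E-Wnt (1.07 ± 0.18, SE, n = 3 per group), and 2.51-fold on the overlapping probe. Differences between these lines were common: 45.6% of features were called changed, and in 29.1% all M-Wnt arrays lay above all E-Wnt arrays, as they did for Hspb1. In M-Wnt, 8.5% of features were higher by at least as much as Hspb1. Hspb1 was a further 1.81-fold higher in metM-Wnt than in M-Wnt (0.85 ± 0.18, SE, n = 3 per group), and 1.74-fold on the overlapping probe. There 9.33% of features were called changed, in 18.6% all metM-Wnt arrays lay above all M-Wnt arrays, and 1.84% were higher by at least as much as Hspb1. From E-Wnt to metM-Wnt the difference was 1.92 ± 0.18, or 3.79-fold, and 3.01% of features were higher by at least as much.

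Without folic acid, Hspb1 was again lowest in E-Wnt, and M-Wnt had the highest mean. Hspb1 was 5.78-fold higher in M-Wnt than in E-Wnt (2.53 ± 0.18, SE, n = 3 per group). All 3 M-Wnt arrays lay above all 3 E-Wnt arrays, which was so for 27.5% of features, and 2.25% were higher by at least as much as Hspb1. Against metM-Wnt, M-Wnt had the higher mean: metM-Wnt minus M-Wnt was -0.30 ± 0.18, with overlapping arrays on the Hspb1 probe. Of all features, 17% were lower in metM-Wnt by at least as much. The red channel alone gave -0.08 ± 0.15. The overlapping probe gave -0.34 ± 0.20. There the lowest M-Wnt array (-1.61) lay just above the highest metM-Wnt array (-1.63). The share of features separated in this way was not computed, and these lines shared no slide. Hspb1 was 4.70-fold higher in metM-Wnt than in E-Wnt (2.23 ± 0.18), and 2.53% of features were higher by at least as much. The comparisons of lines and media share groups of arrays and are not independent of each other.

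The 2 colours of the Hspb1 spots can also be read separately. In green, the fibroblast RNA gave a mean spot signal between 111307 and 184888 on the 18 arrays, a 1.66-fold range. In red, the signal of the cells ran from 10149 to 51839, a 5.11-fold range. The Hspb1 spots were bright, among the top 0.715% to 1.80% of spots of their array. 
In M-Wnt the red signals were 37906, 35528 and 27161 in control medium and 51839, 47798 and 20576 without folic acid, so replicate 3 of the withdrawal group was below all 3 controls. That array also had the lowest mean red signal of the 18, 1964, against 3722 and 3418 on the other two withdrawal arrays and 4213 to 5170 on the controls. Divided by the array's mean red signal, Hspb1 stood at 6.45 to 7.38 times the mean in M-Wnt control medium. Without folic acid it stood at 10.5 to 14 times the mean in M-Wnt, and these groups did not overlap. On this quotient, the share of all features that did not overlap was not computed. 
In E-Wnt the same quotient was 2.92 to 3.89 in control medium and 2.46 to 2.93 without folic acid. In metM-Wnt it was 8.76 to 13.1 in control medium and 10.6 to 13.6 without folic acid.

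**Figure D2:**
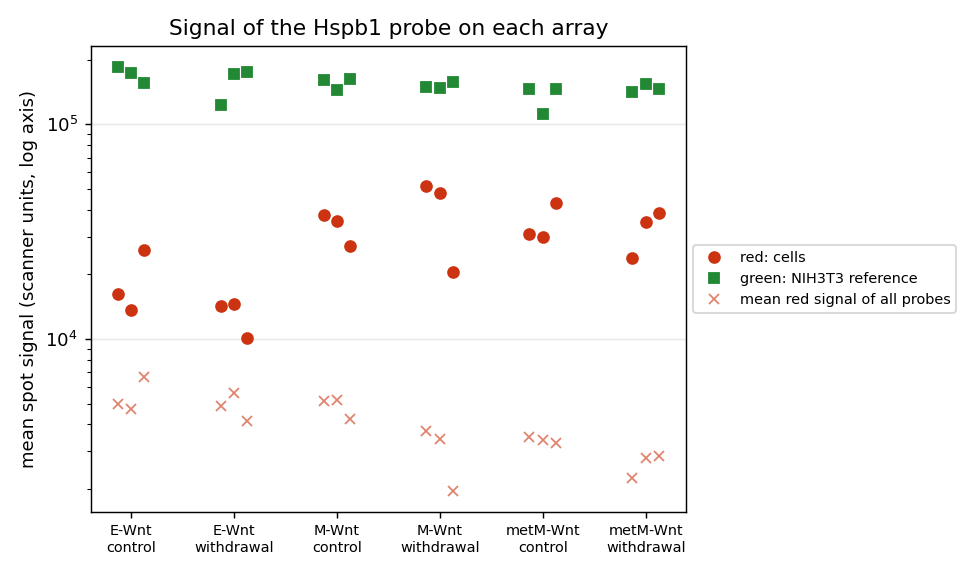
Mean spot signal of the Hspb1 probe on each array in scanner units on a log axis, red for the cells (circles) and green for the NIH3T3 reference (squares), with the mean red signal of all probes as crosses, in 6 groups of 3 arrays. The green values stay within 111307 to 184888, while the red values range from 10149 to 51839. The mean red signal of all probes is lowest, 1964, in M-Wnt withdrawal replicate 3.

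The size of the M-Wnt difference depended on the correction for the intensity trend within arrays. Before any centring or loess the Hspb1 log2 ratios in M-Wnt control medium were -2.09, -2.03 and -2.59. Without folic acid they were -1.53, -1.62 and -2.93, so the groups overlapped. The loess correction lowered the 3 control values by 0.55 to 1.03. It lowered replicates 1 and 2 of the withdrawal group by 0.13 and 0.01 and raised replicate 3 by 1.08. These shifts contain the overall offset of an array as well as the trend. For withdrawal replicate 3 the array median was -0.66, and Hspb1 read -2.28 after median centring and -1.86 after loess. With each array centred on its median in place of loess, the M-Wnt difference was 0.54 ± 0.34 (SE), where the median of all features was -0.25, so Hspb1 lay 0.79 above that median. After loess it lay 1.24 above a median of 0.04. The red channel alone gave 1.0 ± 0.15, and the red signal over the array's mean gave 0.88. Across 22 alternatives, arrays left out in turn among them, the M-Wnt difference had a single sign, from 0.54 to 1.42. In metM-Wnt 19 of 22 kept the sign, and in E-Wnt 19 of 22. Not all of these could move the value: other probe filters, the replicate block and fits to a line's own arrays left it unchanged. Slide as a fixed block and the comparison within a slide were the same fit.

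**Figure D3:**
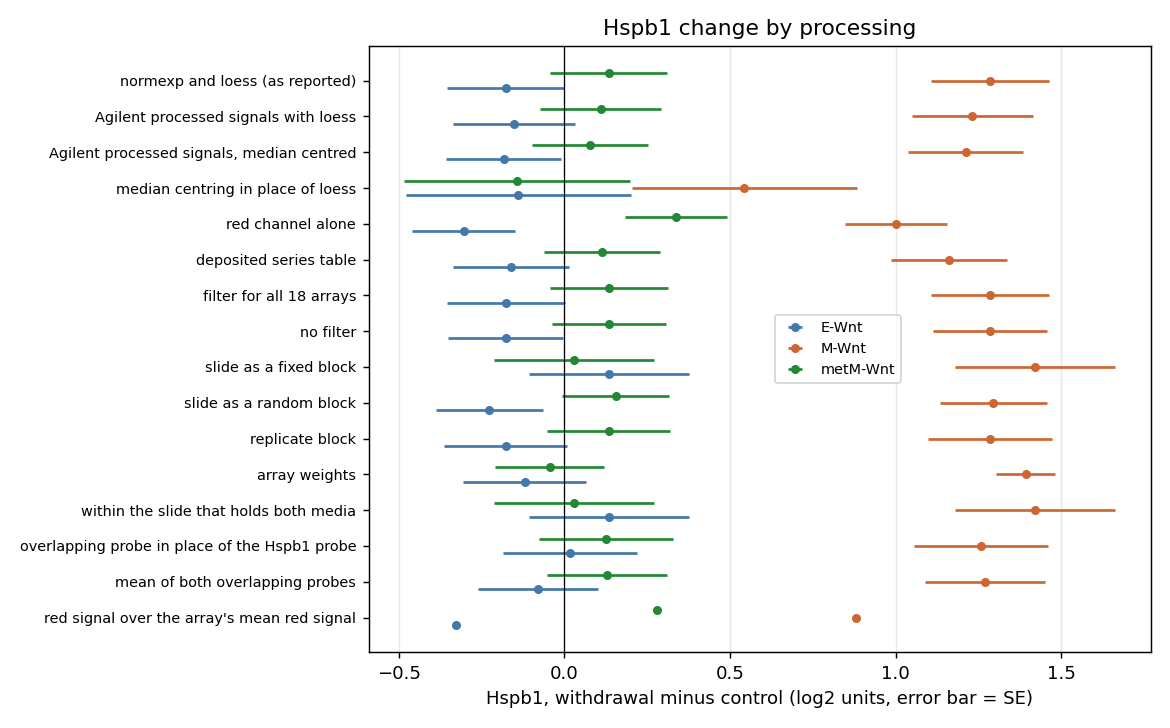
Withdrawal minus control for Hspb1 in log2 units (horizontal axis, error bar = SE) in the 3 lines under the ways of processing the arrays, without the fits that leave out an array or use a single line; the last line of values has no SE. M-Wnt lies to the right of 0 in every line of the plot and is lowest, 0.54, with median centring, while E-Wnt and metM-Wnt lie between -0.33 and 0.34.

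The 18 arrays lay on 5 slides, and the slides did not hold the groups evenly. A single slide held replicate 3 of the M-Wnt controls and all 3 M-Wnt withdrawal arrays, and within it the Hspb1 difference was 1.42 ± 0.24 (SE, with 1 control array). Within the slide that held all E-Wnt controls and 1 withdrawal array it was 0.13 ± 0.24, and within that of all metM-Wnt controls and 1 withdrawal array 0.03 ± 0.24. With slide as a fixed block, M-Wnt minus E-Wnt in control medium was 1.60 ± 0.32. No slide held control arrays of both lines, so this value passes through the E-Wnt withdrawal arrays and is not a direct comparison. No slide held metM-Wnt together with another line, so metM-Wnt and its slides cannot be told apart in a comparison of lines. All M-Wnt arrays and 2 E-Wnt withdrawal arrays also came from the 8 scanner files that list probe sequences. These E-Wnt arrays read -4.50 and -4.30, and the withdrawal array of the other file type -3.93. The part of the file type in the comparisons of M-Wnt with the other lines, in either medium, and in E-Wnt withdrawal was not tested.

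Few other chaperone genes could be read beside Hspb1. Of 102 genes in 6 chaperone lists, 5 had a named and measured probe. Among them were 0 of 10 other small heat shock proteins and 0 of 19 HSP70, HSP110 and HSP90 genes. The list of heat shock factors and their binding protein Hsbp1 had 0 of 5. The 5 are Hspd1, the mitochondrial HSP60, Dnajb9, an HSP40 protein of the endoplasmic reticulum, Ppid, a prolyl isomerase that binds HSP90, Txndc9, a thioredoxin-like regulator of the CCT chaperonin, and Pfdn1, a prefoldin subunit.

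In M-Wnt, 1 of these 5 genes fell and 0 rose after withdrawal (limma), a share near the 18.4% of all features called. The median difference of the 5 was 0.13 against 0.04 over all features. With median centring in place of loess all 5 values were negative, with a median of -0.58 against -0.25 over all features, and with the red channel alone the median was -0.03. Txndc9 was at 0.38, 0.43 and 0.37 in control medium and at 0.00, 0.04 and -0.15 without folic acid. It fell by 0.43 log2 units (SE 0.10, adjusted p = 0.0084), and with median centring the value was -1.15 (adjusted p = 0.022). Within the slide that held both media, and with slide as a fixed block, the Txndc9 value was -0.41 (adjusted p = 0.15). The difference was 0.25 for Ppid (adjusted p = 0.26), 0.18 for Pfdn1 (adjusted p = 0.60), 0.13 for Dnajb9 (adjusted p = 0.51) and -0.03 for Hspd1 (adjusted p = 0.92), and none of these passed.

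In metM-Wnt, 0 of the 5 genes passed the limma test after withdrawal, with 1 at an unadjusted p under 0.05 and 0.404% of all features called. That gene was Dnajb9, with a difference of 0.33 (adjusted p = 0.29), from 0.48 to 0.70 in control medium to 0.82 to 0.94 without folic acid. The others ran from -0.23 for Hspd1 to 0.12 for Ppid. In E-Wnt, 0 of the 5 passed limma, with 1 at an unadjusted p under 0.05 and 0.0389% of all features called. That gene was Ppid, with a difference of -0.34 (adjusted p = 0.61), and the others ran from -0.18 for Txndc9 to 0.16 for Hspd1. 

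**Figure D4:**
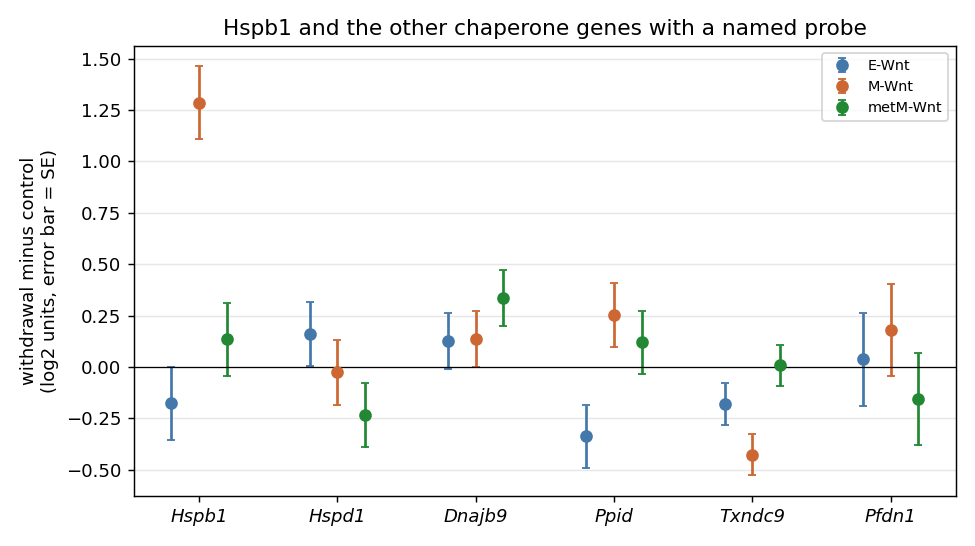
Withdrawal minus control in log2 units (error bar = SE of the limma model, n = 3 arrays per group) for Hspb1 and the 5 other chaperone genes with a named probe, in E-Wnt, M-Wnt and metM-Wnt. The M-Wnt point of Hspb1, at 1.29, stands above all other points, and Txndc9 in M-Wnt, at -0.43, is the lowest.

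Between the lines in control medium, Ppid and Txndc9 differed. In M-Wnt against E-Wnt, 2 of 5 chaperone genes were lower and 0 higher, a share near the 45.6% of features called, and their median was -0.25 against 0.02 over all features. Ppid was lower by -0.60 ± 0.15 (SE, adjusted p = 0.0044), from 1.32, 1.16 and 1.65 in E-Wnt to 0.56, 0.79 and 0.98 in M-Wnt. Txndc9 was lower by -0.46 ± 0.10 (SE, adjusted p = 0.0012). With median centring neither passed (Ppid -0.56, adjusted p = 0.29; Txndc9 -0.41, adjusted p = 0.35), and with slide as a fixed block Ppid did not (-0.57, adjusted p = 0.19).

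In metM-Wnt against M-Wnt, Ppid was the 1 gene of 5 that passed, lower by -0.56 ± 0.15 (SE, adjusted p = 0.032), beside 9.33% of features called. Its metM-Wnt values were -0.00, 0.34 and 0.34. This call was lost with the replicate number as a block (-0.56, adjusted p = 0.057) and with median centring (-0.95, adjusted p = 0.23). It was also lost without M-Wnt control replicate 2 (-0.55, adjusted p = 0.10) or 3 (-0.46, adjusted p = 0.16), and without metM-Wnt control replicate 1 (-0.44, adjusted p = 0.13) or 3 (-0.61, adjusted p = 0.053). The median of the 5 genes was -0.14 against 0.04 over all features.

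Of 13 kinases and partners of Hspb1, only Ezr, the ezrin linker between actin and the cell membrane, had a named probe. Ezr was lower in M-Wnt than in E-Wnt in control medium by -1.53 ± 0.28 (SE, adjusted p = 0.00022), with a range of -2.26 to -1.36 over the alternatives. Its probe was well above background on 3 of 3 arrays in both of these groups, but on 0 of 3 M-Wnt withdrawal arrays, so no withdrawal difference is given for M-Wnt. Of 20 genes of oxidative and unfolded protein stress, only the selenoprotein gene Selenoh did. Selenoh was higher in M-Wnt than in E-Wnt by 1.68 ± 0.31 (SE, adjusted p = 0.00024), with a withdrawal difference of -0.19 in M-Wnt (adjusted p = 0.70). 
Of 29 folate genes, only Gcsh did, a subunit of the glycine cleavage system of mitochondria. Gcsh fell by 0.82 log2 units in M-Wnt (SE 0.23, adjusted p = 0.023), from 0.09, 0.51 and 0.74 to -0.50, -0.56 and -0.07. This call was lost without M-Wnt control replicate 2 (-0.79, adjusted p = 0.078) or 3 (-0.68, adjusted p = 0.11), without M-Wnt withdrawal replicate 1 (-0.76, adjusted p = 0.070) or 2 (-0.73, adjusted p = 0.088), and within the slide (-1.12, adjusted p = 0.082).

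Likeness to Hspb1 was taken as the Pearson r of log2 ratios over the 6 group means, among the 67 other named genes. The highest were Chd3, a chromatin remodeller (0.97), Csn1s1, a milk casein (0.95), and Slfn3, a Schlafen family member (0.93). Over all features, 1.67%, 3.56% and 5.61% had an r at or above these, and 9.25% were above 0.9, so such values were common with 6 points. Group means of Chd3 ran only from -0.16 to 0.20, and those of Csn1s1 from -1.66 to -1.05. Those of Hspb1 ran from -4.24 to -1.71. Slfn3 rose across the lines as Hspb1 did, from 0.63 in E-Wnt control to 1.83 in M-Wnt control and 2.16 in metM-Wnt control, but stood at 1.94 in M-Wnt without folic acid. The lowest were Eif2s2, a subunit of translation initiation factor 2 (-0.95), Txndc9 (-0.95) and Ezr (-0.93). Over the 18 arrays Slfn3 ranked highest (0.84) and Txndc9 lowest (-0.89), followed by Ezr (-0.89), while Chd3 and Csn1s1 had 0.67 each. The overlapping probe had 0.998 over the group means. These r are descriptions over points that share the reference and the arrays, and some of the points are dim. Chd3 was well above background on 0 of 3 metM-Wnt withdrawal arrays and Ezr on 0 of 3 M-Wnt withdrawal arrays, and Csn1s1 missed at least 1 array in 4 of the 6 groups.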

How the data were processed

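The members, gene lists and settings were chosen with earlier results of these data known. Per the file headers, the deposited scanner files hold spot intensity on a linear scale, quantified by the authors with Agilent Feature Extraction 10.7.3.1. The authors' deposited series values are log10 ratios that equal those of the scanner files within 0.005. From mean signal and median background, normexp (offset 50), loess within arrays (control and outlier spots at weight 0) and averaging of spots gave log2 ratios from the deposited intensities, in limma 3.58.1 under R 4.3.3 (files read with data.table, version 1.17.8). Each array had 165888 spots, 4848 of them controls. Probes with both spots well above background in red on all 3 arrays of a group were kept (41109), 20 lacking usable spots on an array were dropped, and probes of a named gene were averaged. RefSeq (GRCm38.p6) named 193 probes, 182 by transcript accession and 11 by synonym. The 6 group means were fitted with limma (lmFit, eBayes; 12 residual and 3.96 prior degrees of freedom), with 2-sided tests and Benjamini-Hochberg adjustment over all 41082 features. The procedure was tested on simulated data.

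Named are Hspb1, every measured member of the lists, and the 3 named genes most and least like Hspb1. Replicate numbers were not treated as pairs. Same-numbered arrays had deviations from the group means that correlated over 0.1 in 3 of 9 pairs (-0.651 to 0.547). With 3 arrays per group, these values cannot settle whether the samples were paired. Figures were drawn with matplotlib 3.10.9 under Python 3.11.15.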

Additional observations from a re-analysis of the deposited data

How the results depend on the processing

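All Hspb1 differences are in log2 units. Under every alternative run they kept their sign, except withdrawal in metM-Wnt and in E-Wnt (19 of 22 each). Alternatives that could not move a difference, such as the probe filters and the replicate block, are counted among these. Centring arrays on the median, without loess, gave 0.54 for withdrawal in M-Wnt, -0.14 in metM-Wnt, 1.30 for M-Wnt minus E-Wnt and 0.42 for metM-Wnt minus M-Wnt in control medium. Without folic acid it gave 1.98 for M-Wnt and 1.72 for metM-Wnt minus E-Wnt, and 0.68 and 0.69 for the M-Wnt response minus that of E-Wnt and metM-Wnt. In M-Wnt withdrawal 7.91% of 6223 calls over all features were then higher, against 54.4% of 7563 after loess, 37.6% of 6215 in the series table and 38.7% of 6635 for red alone. The red channel alone gave 1.0 for withdrawal in M-Wnt, 0.59 for metM-Wnt minus M-Wnt in control medium and 0.66 for the response against metM-Wnt. The series table gave 2.28 for M-Wnt minus E-Wnt without folic acid. Slide as a fixed block gave 0.13 for withdrawal in E-Wnt (also within the slide) and 1.39 for the response against metM-Wnt. For that response, array weights gave 1.44. The slide block gave 1.60 and 2.89 for M-Wnt minus E-Wnt with and without folic acid, each by way of arrays in the other medium. Chosen after seeing the data, the overlapping probe gave 1.33 for M-Wnt minus E-Wnt in control medium. The red signal over the array's mean, also chosen after seeing the data, gave 0.88 for withdrawal in M-Wnt, 0.55 and 1.60 for metM-Wnt minus M-Wnt and minus E-Wnt in control medium, 2.26 and -0.057 for M-Wnt minus E-Wnt and metM-Wnt minus M-Wnt without folic acid, and 1.21 and 0.60 for the responses against E-Wnt and metM-Wnt. Leaving out each array in turn gave 1.22 to 1.38 for withdrawal in M-Wnt, -0.05 to 0.33 in metM-Wnt and -0.33 to -0.05 in E-Wnt. In control medium it gave 0.97 to 1.14 for M-Wnt minus E-Wnt, 0.66 to 1.04 for metM-Wnt minus M-Wnt and 1.73 to 2.10 for metM-Wnt minus E-Wnt; the responses ran from 1.34 to 1.62 against E-Wnt and from 0.96 to 1.33 against metM-Wnt. Of the 5 chaperone genes, 0 passed in M-Wnt withdrawal within the slide or with slide as a fixed block and 2 with array weights (main value 1). In M-Wnt against E-Wnt 0 passed with median centring and 1 with slide as a fixed block (main value 2). In metM-Wnt against M-Wnt 0 passed with median centring or the replicate block, 2 with slide as a random block or array weights, and 0 to 1 with an array left out (main value 1). With the replicate block, used although pairing by number was not established, the Hspb1 withdrawal difference in M-Wnt stayed at 1.29 (SE 0.19). The cause of these changes was not tested. Taking each Hspb1 probe or the brightest changed nothing, since there is 1 probe, and with slide as a fixed block metM-Wnt could not be set against the other lines.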
